A study of Mus musculus with 12 samples.

Results

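The protein disulfide isomerases and the oxidase that serves them were followed as a group of 10 genes: P4hb, Pdia3, Pdia4, Pdia5, Pdia6, Txndc5, Erp29, Erp44, Dnajc10 and Ero1l. Members were matched by listed gene symbols, current or older, with no measured value in the rule, although the list was drawn up with earlier results of these data known. All 10 were on the array, out of 12384 genes that had a probe set annotated with 1 symbol. They were measured by 18 of the 22626 probe sets tested, with 1 probe set for 4 genes (P4hb, Pdia3, Pdia5 and Erp29), 2 for 4 genes (Pdia4, Pdia6, Txndc5 and Erp44) and 3 for 2 genes (Dnajc10 and Ero1l). No filter on low values was applied, so every member entered every test. Where a gene had several probe sets, the brightest over all 12 arrays stands for it below, and the MMS differences of the others are given too.

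Proteins that a cell secretes acquire their disulfide bonds in the endoplasmic reticulum (ER). Protein disulfide isomerases hold a thioredoxin-like fold and make, break and reshuffle these bonds, and the Ero1 oxidases take the electrons that the isomerases gather and pass them to oxygen. Hepatocytes secrete most plasma proteins, and many of these enzymes are induced when unfolded protein accumulates in the ER.

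RNA came from livers of C57Bl/6J mice aged 6 to 8 weeks, in 4 groups of 3 animals with 1 array each. The groups were Aag knock-out mice given MMS, wild-type mice given MMS, Aag knock-out controls and wild-type controls. MMS (methyl methanesulfonate), an agent that methylates DNA bases, was injected once into the peritoneum at 75 mg/kg, and livers were taken 6 hours later. Whether the controls were injected is not given in the sources used here. Aag, also called Mpg, is the alkyladenine DNA glycosylase that starts the repair of methylated purines, and it was inactivated in the knock-out mice. The knock-out is not described as restricted to a cell type, and wild-type and knock-out animals are not said to be littermates.

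Values are deposited log2 expression values, so 1 unit is a doubling of signal, and levels of different probe sets are not compared. A change was called where the adjusted p of limma (Benjamini-Hochberg over 22626 probe sets) was under 0.05. Errors are SD over 3 animals for group means and SE for differences. Array medians ran between 7.42 and 7.75. Across the table, 1458 probe sets were called for MMS against control in wild-type liver and 341 in knock-out liver, whereas 4 were called for knock-out against wild type after MMS and 9 without it. Of the wild-type calls, 30.9% were higher with MMS as deposited, 53.7% after quantile normalization and 72.8% after median centring, which moved the median of all probe sets to 0.14, against -0.05 as deposited. The dimmer Mpg probe set was at 5.32 to 5.75 in knock-out MMS and 6.40 to 6.94 in wild-type MMS livers, and at 4.95 to 5.60 in knock-out control and 6.21 to 6.58 in wild-type control livers. The brighter Mpg probe set differed by -0.31 (adjusted p = 0.615 by limma), and where either lies relative to the deleted part is not known. Albumin, which marks hepatocytes, was between 14.16 and 14.61 on every array. Of the arrays, knock-out MMS array 3 was most correlated with a wild-type control array (r = 0.989), wild-type MMS array 1 with a knock-out control array (r = 0.989) and knock-out control array 3 with a knock-out MMS array (r = 0.987). The clock-controlled gene Dbp was at 12.16 to 12.83 in knock-out MMS, 12.49 to 12.77 in wild-type MMS, 10.64 to 13.04 in knock-out control and 8.14 to 8.58 in wild-type control livers, and its part in the results was not tested.

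The regulatory sequence upstream of these genes is shown because several members are known targets of the ER stress response, which acts through the ER stress response element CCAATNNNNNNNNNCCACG. Promoter windows of 250 bases before the annotated start were available from RefSeq for 9 of the 10 members, 12 windows in all. A gene was counted where any of its windows matched, whereas the percentages are of single windows, so counts and percentages have unlike bases. The full element, searched on both strands, was in 1 member, Pdia6, and in 0.113% of 32851 windows. Its parts are common: CCAAT was in 5 members and 33.8% of windows, and CCACG was in 6 members and 28.3% of windows. ACGTG was in 6 members and 16.6% of windows. Parts and the full element were counted separately, so CCAAT and CCACG inside the full element of Pdia6 also count as matches to the parts. Build GRCm38.p6 is used throughout, and sequences run 5′ to 3′ on the gene's strand. Capitals mark the 5 bases at each end of the full element in Pdia6, and in Pdia4, P4hb and Pdia3 every match to CCAAT or CCACG on either strand. In Pdia6 the element begins 98 bases before the start, and Pdia4 holds 3 CCAAT matches and no CCACG.

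Pdia6 (chr12:17266339-17266588, plus strand): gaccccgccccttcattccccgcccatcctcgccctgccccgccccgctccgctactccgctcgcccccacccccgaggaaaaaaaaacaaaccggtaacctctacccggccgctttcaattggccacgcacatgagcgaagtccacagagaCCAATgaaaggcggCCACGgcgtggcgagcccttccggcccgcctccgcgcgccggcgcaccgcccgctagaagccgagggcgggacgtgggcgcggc
Pdia4 (chr6:47813513-47813762, minus strand): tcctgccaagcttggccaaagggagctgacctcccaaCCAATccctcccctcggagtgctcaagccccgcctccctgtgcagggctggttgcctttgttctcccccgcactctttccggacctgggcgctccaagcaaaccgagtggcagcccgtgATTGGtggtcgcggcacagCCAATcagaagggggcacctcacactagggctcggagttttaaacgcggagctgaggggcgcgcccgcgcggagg
P4hb (chr11:120573254-120573503, minus strand): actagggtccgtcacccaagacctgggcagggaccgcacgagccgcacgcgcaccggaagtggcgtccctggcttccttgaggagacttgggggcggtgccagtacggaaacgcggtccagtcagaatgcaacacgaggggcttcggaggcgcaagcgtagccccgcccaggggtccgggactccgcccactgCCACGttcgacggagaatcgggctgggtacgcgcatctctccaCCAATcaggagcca
Pdia3 (chr2:121413652-121413901, plus strand): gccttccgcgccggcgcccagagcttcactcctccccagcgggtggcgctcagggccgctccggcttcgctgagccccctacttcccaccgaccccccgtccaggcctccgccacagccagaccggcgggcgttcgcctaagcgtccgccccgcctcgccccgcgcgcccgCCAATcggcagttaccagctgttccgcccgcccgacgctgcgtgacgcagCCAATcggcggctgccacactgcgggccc

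In knock-out liver, Txndc5 rose after MMS. It was 1 of 10 members called, where 0.888% of 12384 genes were called higher, and 0 members were called lower, against 0.816% of genes. Txndc5, a thioredoxin-domain isomerase with several catalytic domains, was at 11.80, 11.32 and 11.08 in knock-out MMS livers, and at 10.07, 10.26 and 10.74 in knock-out control livers. The 3 MMS arrays all lay above the 3 controls. The difference was 1.04 ± 0.22 (95% interval 0.56 to 1.53, adjusted p = 0.0485), a 2.06-fold higher signal. The other Txndc5 probe set did not show this: it was at 10.11, 9.78 and 9.72 in knock-out MMS and 9.95, 10.04 and 10.03 in knock-out control livers, a difference of -0.14 ± 0.12 (adjusted p = 0.499). Across the 12 arrays the 2 Txndc5 probe sets had r = -0.05.

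Erp29, a resident ER protein with the thioredoxin fold but without the active-site cysteine pair, had the largest difference of the 10 members in knock-out liver. Its values were 9.82, 10.09 and 8.90 in knock-out MMS livers, and 8.42, 8.33 and 8.37 in knock-out control livers. All 3 MMS arrays were above the controls, with array 3 well below the other two. The difference was 1.23 ± 0.28 and missed the threshold (adjusted p = 0.0547). Pdia3, which acts on glycoproteins bound to calnexin and calreticulin, was at 12.52, 12.36 and 11.30 in knock-out MMS livers, and at 11.12, 11.24 and 10.92 in knock-out control livers. Its groups did not overlap either, and array 3 was again the lowest of the MMS arrays. The difference was 0.97 ± 0.27 (adjusted p = 0.0780).

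Pdia6, an isomerase that works with the chaperone Hspa5, was at 11.61, 11.54 and 11.26 in knock-out MMS livers, and at 10.79, 11.07 and 10.87 in knock-out control livers. The groups did not overlap, and the difference was 0.56 ± 0.14 (adjusted p = 0.0632); the dimmer Pdia6 probe set differed by -0.08 ± 0.23. Erp44, which retains Ero1 and unassembled proteins in the early secretory pathway, was at 11.83, 11.82 and 11.22 in knock-out MMS livers, against 11.00, 11.00 and 11.14 in knock-out control livers. Here too the lowest MMS array was above the highest control, by a small margin. The difference was 0.58 ± 0.21 (adjusted p = 0.134). Pdia5, whose knock-out groups overlapped, differed by 0.53 ± 0.22 (adjusted p = 0.161), and the dimmer Erp44 probe set differed by 0.29 ± 0.22.

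For Dnajc10 and Ero1l the probe sets gave unlike differences in knock-out liver. The brightest of Dnajc10 differed by 0.10 ± 0.13, the middle one by 0.40 ± 0.15 (adjusted p = 0.126) and the dimmest by 0.45 ± 0.12 (adjusted p = 0.0735), the last without overlap. The brightest of Ero1l differed by 0.03 ± 0.15, the middle one by 0.43 ± 0.13 without overlap (adjusted p = 0.0909) and the dimmest by 0.24 ± 0.18 (adjusted p = 0.425). None of these was called.

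By the brightest probe sets, 6 of the 10 members were higher in knock-out liver at an unadjusted p under 0.05, against 13.3% of genes. Of the 10 members, 5 did not overlap and were higher in knock-out MMS livers, against 13.9% of 12384 genes, and the median difference of the members was 0.54, against -0.06 over all genes.

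For Erp29, Erp44, Pdia3, Pdia4, Pdia5, Pdia6 and Txndc5 the lowest knock-out MMS value was on array 3. Without that array, 5 members were called (Erp29, Erp44, Pdia3, Pdia6 and Txndc5), with Erp29 at 1.58 and Pdia3 at 1.34. Calls rose over the whole table too: 1823 of 22626 probe sets were called higher without it, against 169 with all arrays. Txndc5 was called in 10 of 23 other settings, and its difference ran from 0.45 to 1.39 over them.

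In wild-type liver, 0 of 10 members were called after MMS, where 2.2% of 12384 genes were called higher and 5.33% lower; 3 members were higher at an unadjusted p under 0.05, against 8.88% of genes. Ero1l, the Ero1 oxidase of most tissues, had the smallest p. It was at 11.30, 11.11 and 11.25 in wild-type MMS livers, and at 10.47, 10.84 and 10.85 in wild-type control livers. All 3 MMS arrays lay above the controls, and the difference was 0.50 ± 0.15 (95% interval 0.17 to 0.82, adjusted p = 0.0708). Its other probe sets differed by 0.24 ± 0.13 and 0.50 ± 0.18, neither called. Pdia5, a less studied isomerase of the family, was at 11.14, 11.64 and 11.45 in wild-type MMS livers, and at 10.74, 10.76 and 11.05 in wild-type control livers. It did not overlap between groups and differed by 0.56 ± 0.22 (adjusted p = 0.148). Txndc5 was at 10.87, 11.35 and 11.11 in wild-type MMS livers and 10.41, 10.53 and 10.71 in wild-type control livers, without overlap, and differed by 0.56 ± 0.22 (adjusted p = 0.159). The other Txndc5 probe set differed by 0.01 ± 0.12 (adjusted p = 0.970).

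Pdia3 was the fourth member without overlap in wild-type liver, at 11.64 to 12.17 with MMS and 11.46 to 11.51 in controls; 11.4% of 12384 genes were higher without overlap in this comparison. Its difference was 0.42 ± 0.27 (adjusted p = 0.385). The median difference of the members was 0.22 in wild-type liver, against -0.06 over all genes. Erp44, Erp29 and Pdia6 differed by 0.23, 0.22 and 0.01 in wild-type liver, and the dimmer probe sets of Erp44 and Pdia6 by -0.02 and 0.20. Dnajc10, a reductase with a J domain that prepares misfolded proteins for export from the ER, differed by 0.15 ± 0.13 by its brightest probe set, by 0.24 ± 0.15 by the middle one and by 0.41 ± 0.12 (adjusted p = 0.0703) by its dimmest.

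**Figure D1:**
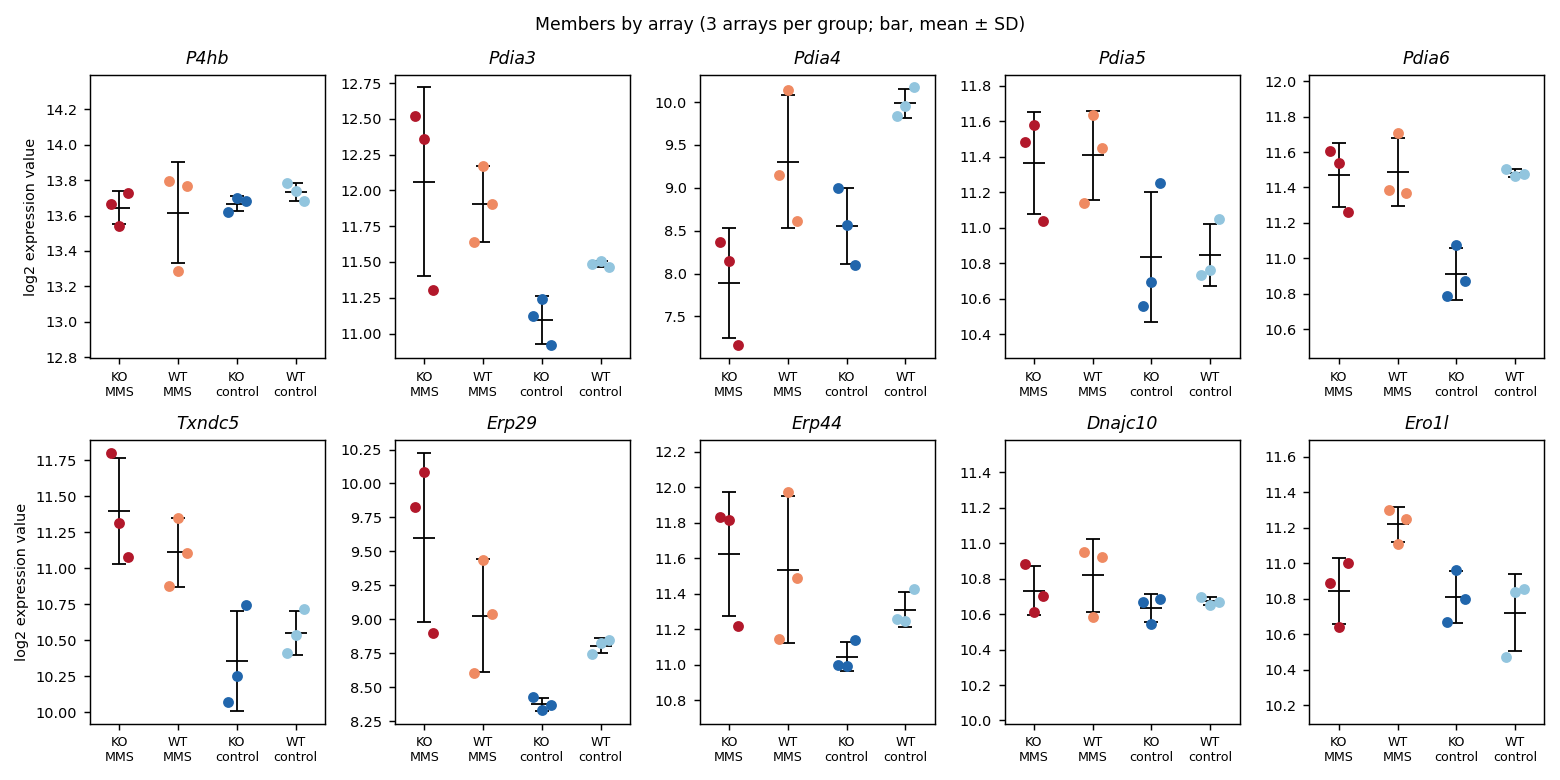
Deposited log2 values of the 10 members, by each gene's brightest probe set, with 1 point per animal in the 4 groups and bars for the mean ± SD. Txndc5 and Erp29 in knock-out MMS livers sit above their controls, whereas P4hb lies between 13.29 and 13.80 on all 12 arrays.

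P4hb, the founding member of the family and also a subunit of the prolyl 4-hydroxylase and the microsomal triglyceride transfer protein, showed no difference beyond its spread. It differed by -0.12 ± 0.14 (95% interval -0.43 to 0.19) in wild-type liver and by -0.02 ± 0.14 in knock-out liver. Its values were 13.67, 13.54 and 13.72 in knock-out MMS, 13.80, 13.29 and 13.77 in wild-type MMS, 13.62, 13.70 and 13.68 in knock-out control and 13.78, 13.74 and 13.68 in wild-type control livers. Wild-type MMS array 2 was its lowest.

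Averaging the MMS difference over both genotypes, a contrast added after the values had been seen, called 4 of 10 members higher and 0 lower, where 5.04% of 12384 genes were called higher and 7.49% lower. Txndc5 rose by 0.80 ± 0.16 (adjusted p = 0.0107), Erp29 by 0.73 ± 0.20 (adjusted p = 0.0387), Pdia3 by 0.69 ± 0.19 (adjusted p = 0.0413) and Pdia5 by 0.55 ± 0.15 (adjusted p = 0.0429). The other Txndc5 probe set differed by -0.06 ± 0.09 (adjusted p = 0.661). A further fit took the 5′ minus 3′ signal of the Gapdh and actin control probe sets, a measure of RNA quality, as a covariate. The averaged differences were then 0.59 for Txndc5 (adjusted p = 0.0471), 0.36 for Erp29 (adjusted p = 0.0719), 0.38 for Pdia3 (adjusted p = 0.162) and 0.32 for Pdia5 (adjusted p = 0.177). Txndc5 kept its call and the others lost theirs. Over the whole table, calls of higher signal fell from 1043 to 388 of 22626 probe sets with the covariate. Over all 18 probe sets, 6 were called higher, against 4.61% of 22626, the others being the dimmest of Dnajc10 (0.43 ± 0.09, adjusted p = 0.0118) and a middle one of Ero1l (0.34 ± 0.09, adjusted p = 0.0419). The brightest probe sets of Dnajc10 and Ero1l were not called. The count moved when arrays were left out: it was 1 of 10, Txndc5, in 9 of the 12 fits that left out an array, and 6 of 10 without knock-out MMS array 3. Calls over the whole table moved as well, from 2551 of 22626 probe sets to between 1233 and 4307, the highest without knock-out MMS array 3.

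**Figure D2:**
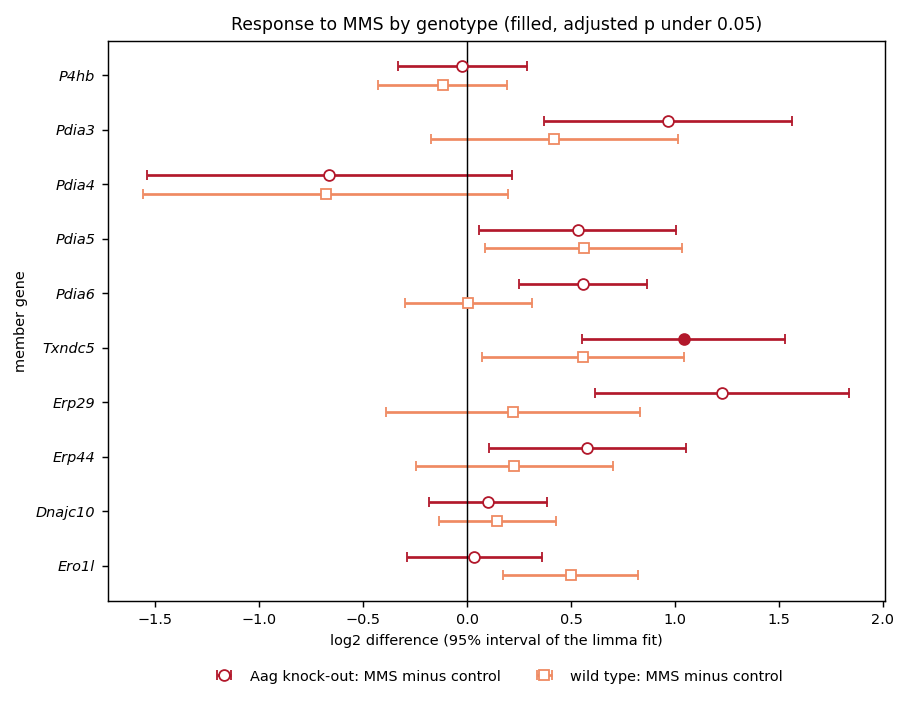
Difference of log2 values, MMS minus control, for each of the 10 members in knock-out and wild-type liver, with 95% intervals from limma and a filled symbol where called. In knock-out liver the interval of Txndc5 runs from 0.56 to 1.53, and in both genotypes the estimate of Pdia4 lies below 0.

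The responses of the 2 genotypes were not shown to differ. The difference of responses, knock-out minus wild type, called 0 of 10 members and 0% of 22626 probe sets, of which 17.7% had an unadjusted p under 0.05. It was 1.01 ± 0.39 for Erp29 (adjusted p = 0.232), 0.55 ± 0.20 for Pdia6 (adjusted p = 0.206) and -0.46 ± 0.21 for Ero1l (adjusted p = 0.280). Txndc5 had 0.48 ± 0.31 (adjusted p = 0.437), so its call in knock-out liver alone does not set the genotypes apart.

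Pdia4, an isomerase with several thioredoxin domains, stood apart from the rest by its genotype difference. Its brighter probe set was at 8.36, 8.15 and 7.16 in knock-out MMS livers, and at 9.15, 10.14 and 8.62 in wild-type MMS livers. Without MMS it was at 8.99, 8.57 and 8.10 in knock-out control livers, and at 9.83, 9.95 and 10.17 in wild-type control livers. Knock-out values lay below wild-type values with no overlap in both settings. The difference was -1.41 ± 0.40 after MMS (adjusted p = 0.138) and -1.43 ± 0.40 without it (adjusted p = 0.426), and neither was called. Averaged over treatments, a contrast added after the values had been seen, it was -1.42 ± 0.28 (95% interval -2.04 to -0.80, adjusted p = 0.209). No other setting brought it past the threshold, though all of them kept it negative, between -1.63 and -0.78.

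The dimmer Pdia4 probe set did not show such a gap. It was at 5.20, 5.55 and 5.60 in knock-out MMS, 5.71, 5.36 and 5.50 in wild-type MMS, 5.36, 5.62 and 5.95 in knock-out control and 5.99, 5.90 and 5.66 in wild-type control livers, and the groups overlapped. Averaged over treatments, its difference was -0.14, and the 2 Pdia4 probe sets had r = 0.17 over the 12 arrays. After MMS the brighter Pdia4 probe set differed by -0.66 ± 0.40 in knock-out liver (adjusted p = 0.326) and by -0.68 ± 0.40 in wild-type liver (adjusted p = 0.339), and the dimmer one by -0.19 ± 0.18 and -0.33 ± 0.18. The wild-type value of the brighter probe set was -1.10 without wild-type MMS array 2 and -0.34 without wild-type MMS array 3.

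For the 10 members together, 0 were called between genotypes after MMS, where 0.0177% of 22626 probe sets were called, and 0 without MMS, where 0.0398% were. After MMS, Pdia4 and Ero1l were lower in knock-out liver without overlap, 2 of 10 members against 7.39% of 12384 genes. Ero1l differed by -0.38 ± 0.15 (adjusted p = 0.223). The dimmer probe sets of Pdia6 and Txndc5 were also lower without overlap, by -0.61 ± 0.23 and -0.34 ± 0.12, neither called. Without MMS, Pdia4, Pdia6, Erp29, Erp44 and Pdia3 were lower in knock-out liver without overlap, 5 of 10 members against 10.8% of 12384 genes, and the median difference was -0.23, against -0.02 over all genes. Pdia6 was at 10.79, 11.07 and 10.87 in knock-out control livers, and at 11.51, 11.46 and 11.48 in wild-type control livers. The difference was -0.57 ± 0.14 (adjusted p = 0.403). The knock-out controls enter both this difference and the knock-out MMS response, so the 2 sets of values are not independent.

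**Figure D3:**
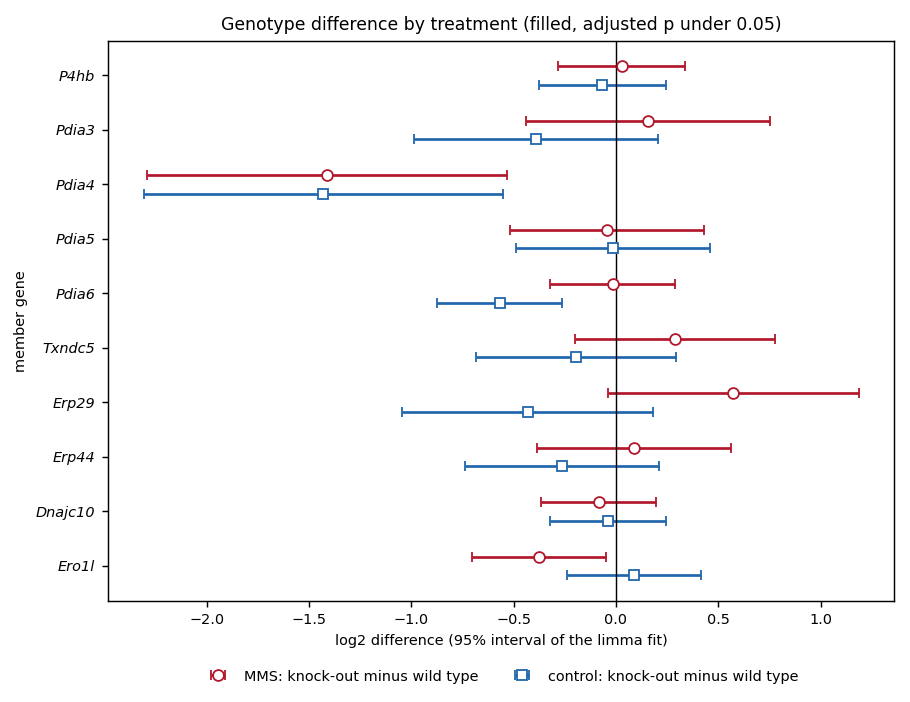
Difference of log2 values, knock-out minus wild type, for each of the 10 members after MMS and without MMS, with 95% intervals from limma. Pdia4 lies lowest in both settings, at -1.41 after MMS and -1.43 without it, and none of the differences was called.

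Probe sets of 1 gene did not always move together, and the calls above belong to single probe sets. Over the 12 arrays the pairs of Erp44 and Pdia6 had r = -0.02 and 0.24. The brightest Ero1l probe set had r = 0.33 and 0.79 with the others, and the brightest of Dnajc10 had r = 0.67 and 0.61. Which transcript ends these probe sets read is not given in the sources used here.

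**Figure D4:**
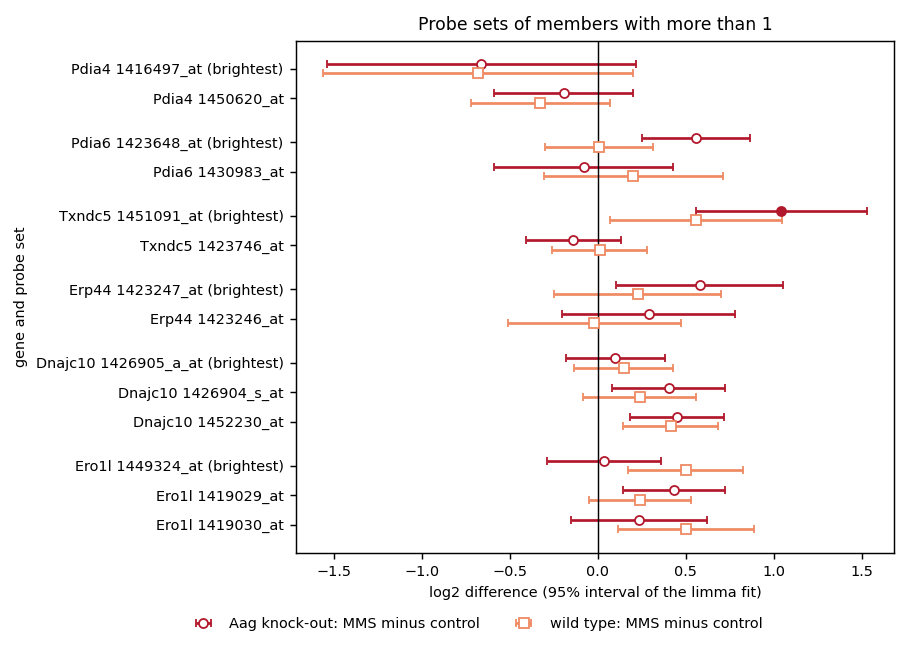
Difference of log2 values, MMS minus control, for every probe set of the 6 members with more than 1, in knock-out liver (circles) and wild-type liver (squares), with 95% intervals from limma and a filled symbol where called. In knock-out liver the brightest Txndc5 probe set lies at 1.04 and the other at -0.14.

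A measure of RNA quality was high on some MMS arrays and not on others. The 5′ minus 3′ signal of the Gapdh and actin control probe sets, averaged, was -1.61, -1.51 and -2.46 in knock-out MMS livers and -2.61, -2.00 and -2.46 in wild-type MMS livers. It was -2.54, -2.66 and -2.33 in knock-out control livers and -2.40, -2.41 and -2.27 in wild-type control livers. A higher value means more 5′ signal relative to 3′ signal. Wild-type MMS arrays 1 and 3 lay below all wild-type controls. Knock-out MMS arrays 1 and 2 and wild-type MMS array 2 were the highest, and the same 3 arrays were the highest for 6 of 10 members (Erp29, Erp44, Pdia3, Pdia5, Pdia6 and Txndc5), as they were for 6.71% of 12384 genes. This measure was used as a covariate in a fit added after the values had been seen. In knock-out liver it called 0 members and 0 of all 22626 probe sets, against 341 in the main fit. The count of 0 therefore says nothing particular to the members. With the covariate Txndc5 differed by 0.63 ± 0.23 (adjusted p = 0.427), Erp29 by 0.50, Pdia3 by 0.35, Pdia6 by 0.34, Pdia5 by 0.07 and Erp44 by 0.05. Pdia4 moved the other way in that fit, to -1.45 ± 0.41 in knock-out liver (adjusted p = 0.350) and -1.07 ± 0.26 averaged over genotypes, which was called (adjusted p = 0.0468). In wild-type liver the same fit called Ero1l (0.50, adjusted p = 0.0439) and Pdia5 (0.56, adjusted p = 0.0416), where 741 of 22626 probe sets were called higher. The covariate hardly changed the wild-type differences themselves: with and without it, Txndc5 had 0.56 and Pdia3 had 0.42.

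**Figure D5:**
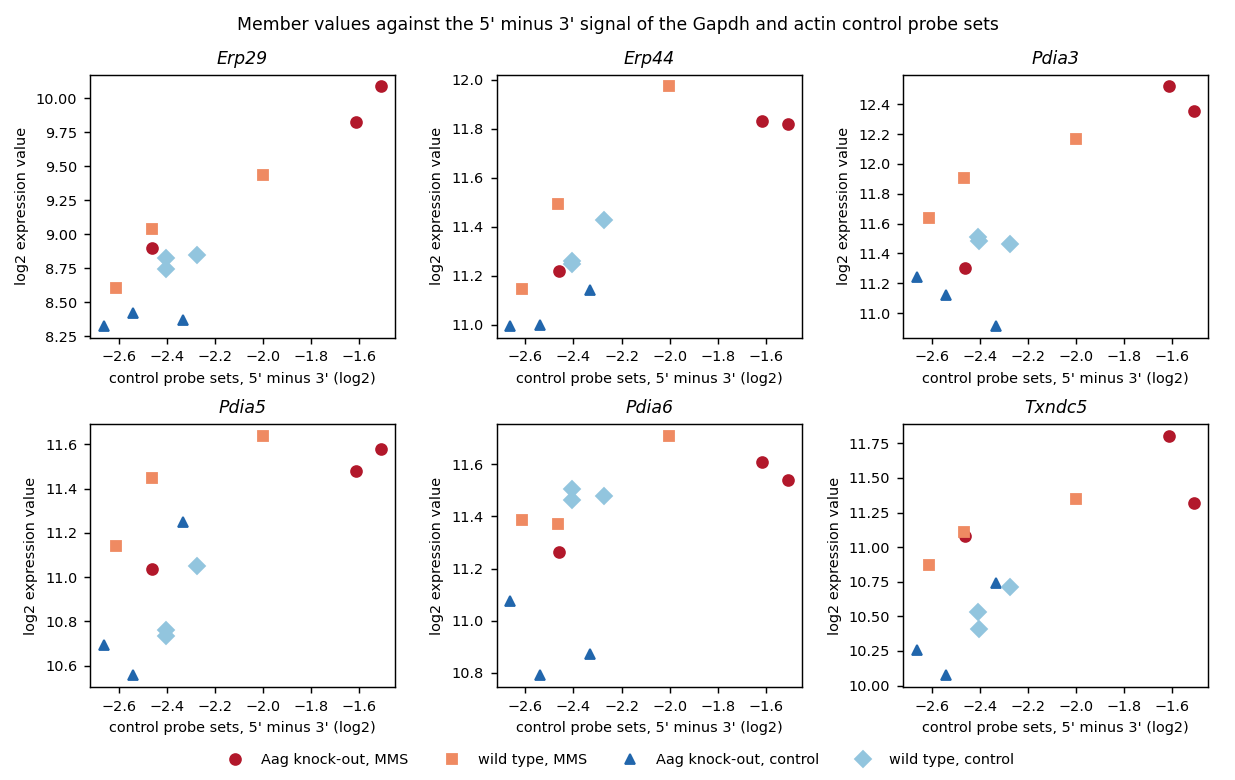
Log2 value of Erp29, Erp44, Pdia3, Pdia5, Pdia6 and Txndc5 against the mean 5′ minus 3′ signal of the control probe sets, with 1 point per array and the 4 groups marked. Knock-out MMS arrays 1 and 2, at -1.61 and -1.51, lie to the right and near the top for Erp29 and Pdia3.

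Markers of other cell types also moved with the arrays. In whole liver, fewer cells of a type and less RNA per cell cannot be told apart. Of 27 pancreatic acinar markers, 20 were measured, and the log2 of their summed signal was 11.60 to 13.90 in knock-out MMS, 11.17 to 12.09 in wild-type MMS, 11.41 to 11.52 in knock-out control and 11.25 to 11.73 in wild-type control livers. Its highest values were on knock-out MMS arrays 1 and 2. Reg1 was at 9.85, 10.97 and 7.10 on the 3 knock-out MMS arrays, and Ctrb1 at 11.06, 6.55 and 6.83. The summed signal of 8 plasma cell markers was 13.04 to 13.44 in knock-out MMS, 13.09 to 13.18 in wild-type MMS, 12.86 to 12.94 in knock-out control and 13.09 to 13.38 in wild-type control livers. The summed signal of 5 hepatocyte markers stayed between 16.36 and 16.67 on all arrays. The part of these markers in the members' results was not tested.

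Among other genes of ER thiol-disulfide chemistry, 19 of 26 were measured. In wild-type liver 4 of the 19 rose after MMS and 0 fell, where 2.2% of all genes were called higher and 5.33% lower. Creld2, an ER stress-induced protein with isomerase-like activity, was at 12.83, 13.11 and 12.85 in wild-type MMS livers and 10.34, 10.63 and 11.01 in wild-type control livers, with no overlap, and rose by 2.27 ± 0.35 (adjusted p = 0.00711). Txndc11 (1.06 ± 0.25, adjusted p = 0.0340), Creld1 (0.55 ± 0.13, adjusted p = 0.0348) and Selenos (0.44 ± 0.11, adjusted p = 0.0408) rose as well. In knock-out liver 1 of the 19 rose, against 0.888% of all genes: Txndc11 (1.26 ± 0.25, adjusted p = 0.0434). Creld1 (0.57 ± 0.13, adjusted p = 0.0554) and Creld2 (1.48 ± 0.35, adjusted p = 0.0587) missed the threshold there. Selenos had a mean of 12.42 in knock-out MMS and 12.10 in knock-out control livers. The median of the 19 genes was -0.05 in wild-type and 0.12 in knock-out liver.

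Of 20 partners of the isomerases, 18 were measured, and in wild-type liver 4 rose after MMS, against 2.2% of all genes: Uggt2, which reglucosylates unfolded glycoproteins (1.00 ± 0.24, adjusted p = 0.0357), P4ha2, a catalytic subunit of the collagen hydroxylase that P4hb completes (0.95 ± 0.23, adjusted p = 0.0342), the Hspa5 co-chaperone Dnajb11 (0.65 ± 0.16, adjusted p = 0.0354) and Hspa5 itself (0.62 ± 0.15, adjusted p = 0.0380). Hspa5 was at 13.58, 13.40 and 13.48 in wild-type MMS livers and 12.73, 12.94 and 12.94 in wild-type control livers, without overlap. In knock-out liver 1 of the 18 rose, against 0.888% of all genes: Dnajb11 (0.73 ± 0.16, adjusted p = 0.0495). Hspa5 differed there by 0.54 ± 0.15 (adjusted p = 0.0788). Means in knock-out MMS and knock-out control livers were 6.72 and 6.03 for Uggt2, and 7.18 and 6.55 for P4ha2. The full ER stress response element was in the windows of 4 of 17 partners that had one, Calr, Canx, Hsp90b1 and Hspa5, and in 2 of 23 other thiol-disulfide genes, Creld2 and Ero1b. It was in 0 of 13 regulators of the unfolded protein response and 0 of 13 hypoxia targets with a window.

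Of 14 regulators of the unfolded protein response, 13 were measured, and 3 rose in wild-type liver, against 2.2% of all genes: Bhlha15, a secretory-cell transcription factor (4.17 ± 0.88, adjusted p = 0.0231), the pseudokinase Trib3 (1.86 ± 0.45, adjusted p = 0.0352) and the ER stress sensor Atf6 (0.87 ± 0.20, adjusted p = 0.0310). In knock-out liver 0 of the 13 were called, against 0.888% of all genes called higher. Atf6 differed there by 0.87 ± 0.20 (adjusted p = 0.0552) and Atf4 by 0.78 ± 0.19 (adjusted p = 0.0617). Bhlha15 had a mean of 7.71 in knock-out MMS livers (8.96, 5.43 and 8.74) and 5.98 in knock-out control livers (4.97, 7.03 and 5.93), with overlap. Trib3 had a mean of 9.74 in both. Its knock-out controls, at 9.72, 8.61 and 10.89, lay above the wild-type controls, at 7.78, 8.07 and 7.77. Of 14 hypoxia targets, a class to which Ero1l belongs, 13 were measured, and 2 fell in wild-type liver, against 5.33% of all genes: Egln3 (-0.73, adjusted p = 0.0224) and Ndrg1 (-0.93, adjusted p = 0.0322). In knock-out liver 0 were called, where 0.888% of all genes were called higher and 0.816% lower. None of the genes in these lists was called between genotypes or in the difference of responses, so a call in wild-type liver alone does not set the genotypes apart.

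Across the 12 arrays, the genes most like the mean of the members, by Pearson r over 12374 other genes, were Impact (0.963), Emc8 (0.946), Pbdc1 (0.944), Med21 (0.938) and Srp9 (0.934). The closest to Txndc5 was Aimp2 (0.980), to Erp29 Fkbp2 (0.988), to Pdia3 Srp9 (0.971) and to Pdia5 Fkbp5 (0.948). These are descriptions over 12 arrays of 4 groups, and genes share the signal scale and RNA quality of each array. Within groups, Erp29 and Erp44 had r = 0.919 and Erp44 and P4hb r = -0.802.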

How the data were processed

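Liver RNA of 12 mice, 3 in each of 4 groups, was measured on Affymetrix arrays. The deposited table holds 1 log2 value per probe set and array, made by the authors with RMA, per the submitters' processing notes; the sources used here give neither its version nor the chip definition, and the log base was taken from the values' range. RMA scales arrays to each other, yet medians of the deposited values still differed. They were 7.42, 7.49 and 7.53 on the wild-type MMS arrays, below 7.64, 7.63 and 7.75 on the wild-type control arrays. A shift of most genes at once cannot be told apart from such an offset between arrays. No detection call came with the values.

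Columns were matched to samples by name, with 0 extra sample columns. Of 22690 probe sets, 64 controls were set aside. The platform annotation gave 1 symbol for 20380 probe sets, several for 691 and none for 1555; current symbols came from RefSeq for 20351. limma 3.58.1 (R 4.3.3) fitted 1 mean per group over all 12 arrays (8 residual degrees of freedom), two-sided, adjusted by Benjamini-Hochberg over 22626 probe sets; the fit was tested on simulated data. Labels give separate animals but no litters or days, and same-numbered arrays did not consistently deviate together, so no block was used. A pairing by number was not excluded, and a fit with a replicate block is among the other settings. All 10 members are reported, each by its brightest probe set. From the other lists, called genes or up to 3 with the smallest p are named. The members and lists were chosen with earlier results of these data known.

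In all, 8 settings were varied besides leaving out each array, and 3 were added after seeing the data, as were 2 contrasts averaged over groups. RefSeq promoter windows (GRCm38.p6) were searched by script. Python 3.11.15 and pandas 2.3.3 built the tables.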

Additional observations from a re-analysis of the deposited data

Results flagged for a closer look

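The 5′ minus 3′ log2 signal of the control probe sets, outside the main measurement, was higher in some MMS arrays than in any control array. For Gapdh it was -0.701 in knock-out MMS array 1, -0.673 in knock-out MMS array 2 and -0.849 in wild-type MMS array 2, against a highest control value of -1.50. For beta-actin it was -2.53 in knock-out MMS array 1 and -2.35 in knock-out MMS array 2, against a highest control value of -3.05. Fits of the members with this measure as a covariate are given above.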

How the results depend on the processing

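With 3 animals a group, many calls lay near the threshold, and no detection call bounds dim probe sets. In wild-type liver, where 0 members were called, 1 (Ero1l) was called with low probe sets left out and with a trended, robust variance. There were 3 (Ero1l, Pdia5 and Txndc5) with median centring, 4 with array weights (those 3 higher, Pdia4 lower) and 2 with the 5′ to 3′ covariate. Over the whole table these settings called, in turn, 1785 of 16969 probe sets, and 1673, 1784, 4873 and 2288 of 22626, against 1458 in the main fit. Leaving out single arrays gave 0 members, and 274 to 1798 probe sets over the whole table. In knock-out liver, where 1 member was called, 3 (Erp29, Pdia6 and Txndc5) were called with low probe sets left out or a trended, robust variance. There were 6 with array weights or without both knock-out arrays numbered 3. Over the whole table these settings called, in turn, 971 of 16969 probe sets, and 1029, 5790 and 3326 of 22626, against 341 in the main fit. There were 0 with the replicate block, only the groups compared, the covariate, or averaging of the probe sets of a gene. Over the whole table the first 3 of these called 19, 0 and 0 of 22626 probe sets, so their zeros say nothing particular to the members. Averaging called 177 of 12384 genes. Without the 3 arrays of highest 5′ signal, 1 knock-out MMS array was left, assumed to vary like the other groups. Txndc5 differed by 0.72 in that fit, which says little of knock-out liver. Leaving out single arrays gave 0 to 5 members, and 0 to 3264 probe sets over the whole table. Of 18 pairs of same-numbered arrays, 7 correlated above 0.1 (range -0.475 to 0.403), and pairs of unlike number ran from -0.472 to 0.524. These values do not show a pairing by number. Deviations from means of 3 arrays cannot exclude one. After MMS, array weights, and leaving out both knock-out arrays numbered 3, each called 1 member between genotypes (Erp29). Over the whole table they called 1482 and 1353 of 22626 probe sets, against 4 in the main fit. Single arrays gave 0 to 1 members, and 3 to 1118 probe sets. Without MMS, array weights called 1 (Pdia6, lower) and 182 of 22626 probe sets, against 9 in the main fit, and single arrays gave 0 to 0 members. For the difference of responses array weights called 2 (Erp29 and Pdia6) and 2344 of 22626 probe sets, against 0 in the main fit. Single arrays gave 0 to 0 members. For the averaged MMS contrast, where 4 were called, array weights called 7 and the covariate 2 (Txndc5 higher, Pdia4 lower). Over the whole table they called 7459 and 1160 of 22626 probe sets, against 2551 in the main fit. Without the 3 arrays of highest 5′ signal, again with 1 knock-out MMS array, Pdia4 differed by -1.25. Single arrays gave 1 to 6 members, and 1233 to 4307 probe sets. The averaged genotype contrast had 0 to 0 members when single arrays were left out. Of 1580 changes of single members under other settings, 1369 kept their side of the threshold and their direction, 50 gained a call, 51 lost it, and 110 changed sign without a call. The causes were not tested.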

Other observations

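Members of neighbouring groups outside the ER thiol system were also measured as markers. The summed signal of 8 endothelial markers was 13.05 to 13.26 in knock-out MMS, 13.01 to 13.18 in wild-type MMS, 13.34 to 13.44 in knock-out control and 13.40 to 13.53 in wild-type control livers; 4 of the 8 fell in wild-type liver after MMS, where 5.33% of all genes did, and 0 were called in knock-out liver. Of 8 stellate cell and fibroblast markers, 4 fell in wild-type liver, where 5.33% of all genes did, and 0 were called in knock-out liver. In knock-out liver only 0.888% of all genes were called higher and 0.816% lower. A count of 0 there therefore says nothing particular to any of these marker lists. The summed signal of 6 neutrophil markers was 10.15 to 11.88 in knock-out MMS and 10.59 to 12.24 in wild-type MMS, against 9.12 to 9.68 in knock-out control and 9.09 to 9.26 in wild-type control livers, and 2 of the 6 rose in wild-type liver, where 2.2% of all genes did, and 0 were called in knock-out liver. In wild-type liver 3 of the 6 were higher with MMS and the median difference was 0.03, so the sum rests on part of the list.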
